A study of Rattus norvegicus with 6 samples.

Results

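The Notch genes examined here were 3 receptors (Notch1, Notch2 and Notch3), 3 ligands (Jag1, Jag2 and Dll1) and 4 target genes (Hey1, Hey2, Heyl and Hes1). They were chosen by gene symbol, as every probe set that the platform annotation gives to only 1 of these symbols. The rule found 12 probe sets for 10 genes, out of 20826 probe sets and 14217 genes with a single symbol. Notch1 and Heyl had 2 probe sets each, and a gene was represented by the brighter of them over all arrays.

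RNA came from clonal cell strains isolated from bile duct cancers that had grown in young adult male Fischer 344 rats after BDEsp cells, spontaneously transformed rat cholangiocytes, were placed into the bile duct. BDEsp-TDECC, called TDECC below, is the cholangiocarcinoma (bile duct cancer) strain, and BDEsp-TDESM, called TDESM, is the cancer-associated fibroblastic strain that the labels describe by overexpression of Acta2, a smooth muscle actin. Each strain was measured on 3 rat Affymetrix arrays. The labels give all 6 arrays the same text, a 3-dimensional organotypic co-culture of the cancer cells in type I collagen gel and the TGF-beta inhibitors SB 431542 and LY2157299, without saying which cultures received what, so neither factor was compared. Each group is a single clone, and the labels do not tell whether separate cultures were grown for its arrays. The p-values therefore reflect array-to-array spread alone, part or all of which may be technical.

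Notch signalling passes between touching cells. A Jagged or Delta-like ligand on a neighbouring cell binds a Notch receptor, ADAM proteases and gamma-secretase then cut the receptor, and its intracellular part enters the nucleus, where it joins the DNA-binding protein Rbpj and a Mastermind co-activator to switch on target genes. Genes of the Hes and Hey families, which encode bHLH repressors, are the best known targets. In the liver, Jag1 and Notch2 are required for bile duct formation, and Notch3 is a receptor of pericytes and vascular smooth muscle.

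The binding motif of Rbpj has the core TGGGAA, often with a G before it. RefSeq (GRCr8) windows of 250 bases before the annotated start were at hand for 9 of the 10 genes, with 2 windows for Jag2; Hey1 had none. The core was searched on both strands. It was present in the windows of 3 genes, Dll1, Hey2 and Hes1, and each of these also held the longer form GTGGGAA, which overlaps the core. Of all 33469 windows of that length, 22.1% held the core and 5.27% held the longer form. The windows of 3 target genes are printed 5′ to 3′ with every match in capitals, because the results below separate these genes: Hey2 (chr1:28640850-28641099, plus strand), Hes1 (chr11:84213046-84213295, minus strand) and Heyl (chr5:140793021-140793270, plus strand).
Hey2: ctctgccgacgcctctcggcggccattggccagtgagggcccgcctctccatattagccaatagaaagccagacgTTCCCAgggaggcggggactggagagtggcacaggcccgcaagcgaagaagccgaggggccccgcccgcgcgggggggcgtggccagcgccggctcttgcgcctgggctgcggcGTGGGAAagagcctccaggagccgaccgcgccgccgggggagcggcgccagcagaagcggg
Hes1: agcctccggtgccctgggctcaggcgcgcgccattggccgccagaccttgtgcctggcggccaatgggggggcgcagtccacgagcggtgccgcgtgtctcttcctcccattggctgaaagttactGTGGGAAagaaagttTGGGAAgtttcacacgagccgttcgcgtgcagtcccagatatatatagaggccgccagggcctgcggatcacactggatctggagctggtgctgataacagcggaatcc
Heyl: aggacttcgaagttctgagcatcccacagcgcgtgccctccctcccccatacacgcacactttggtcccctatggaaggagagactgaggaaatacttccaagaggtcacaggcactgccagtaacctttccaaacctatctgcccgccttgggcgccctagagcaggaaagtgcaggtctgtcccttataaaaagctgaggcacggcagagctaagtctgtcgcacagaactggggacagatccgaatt
In Hey2 the longer form begins 61 bases before the start, and a core on the opposite strand spans bases 175 to 170 before it. Hes1 carries the longer form from base 124 and a further core from base 109 before its start, both on the strand of the gene. Heyl has no match in its window.

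Each array gave RMA values on the log2 scale, with array medians between 5.80 and 5.86; the values carry no detection calls, and precision is limited by having 3 arrays per strain. Across genes, TDECC arrays correlated at 0.968 to 0.976, TDESM arrays at 0.995 to 0.998 and arrays of different strains at 0.788 to 0.823. All 8 epithelial markers examined were lower in TDESM, with array means of 12.45 to 13.04 in TDECC and 4.67 to 4.80 in TDESM, although Krt7 still read 8.0 to 8.37 in TDESM. All 8 fibroblast markers were higher in TDESM, with array means of 13.24 to 13.40 against 5.14 to 5.35. The probe sets for an unspiked control transcript (trp) read 2.80 to 3.53. The 3′ minus 5′ signal of Gapdh was 0.01 to 0.08 (log2) in TDECC and 0.04 to 0.08 in TDESM, and that of beta-actin ran from 0.77 to 1.46 for TDECC and from 0.72 to 0.99 for TDESM; its part in the results was not tested. Every gene was tested with limma, TDESM minus TDECC, and called at a Benjamini-Hochberg adjusted p under 0.05 over all 14217 genes.

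The receptors and ligands that differed were lower in the fibroblastic strain, while the target genes split. Hey2 and Hey1 were higher in TDESM, by 52.8-fold and 9.27-fold, and Hes1, Jag2 and Notch1 were lower, by 3.71-fold, 5.23-fold and 1.74-fold. The other 5 genes, Notch2, Notch3, Jag1, Dll1 and Heyl, were not called. Of the 10 genes 5 were called, against 42.7% of all genes. Of these, 2 were higher, against 22.1% of all genes, and 3 lower, against 20.6%. For 6 members the TDECC and TDESM values were fully separate, against 53.6% of all genes. Those called with a log2 difference of at least 1 numbered 4 (Hey1, Hey2, Jag2 and Hes1), against 25.5% of all genes. The members' median difference was -0.08 on the log2 scale and that of all genes was 0.0033. The share of members called was thus near that of all genes. In RNA from whole cultures, fewer cells that express a gene and less RNA per cell cannot be told apart.

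These differences are relative to arrays scaled to a common distribution. Centred on the poly-A control transcripts instead, the median gene moved by -1.22, and all 10 members were called, 2 higher and 8 lower in TDESM. Of all 14217 genes, 11771 were called under that centring, 898 higher and 10873 lower. The centring subtracts the same offset from every gene of an array, so all its calls share the error of that offset. They are therefore not separate evidence for each gene. Hey1 and Hey2 remained higher (log2 differences 1.99 and 4.50) and Notch1, Jag2 and Hes1 remained lower (-2.02, -3.61 and -3.11).

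**Figure D1:**
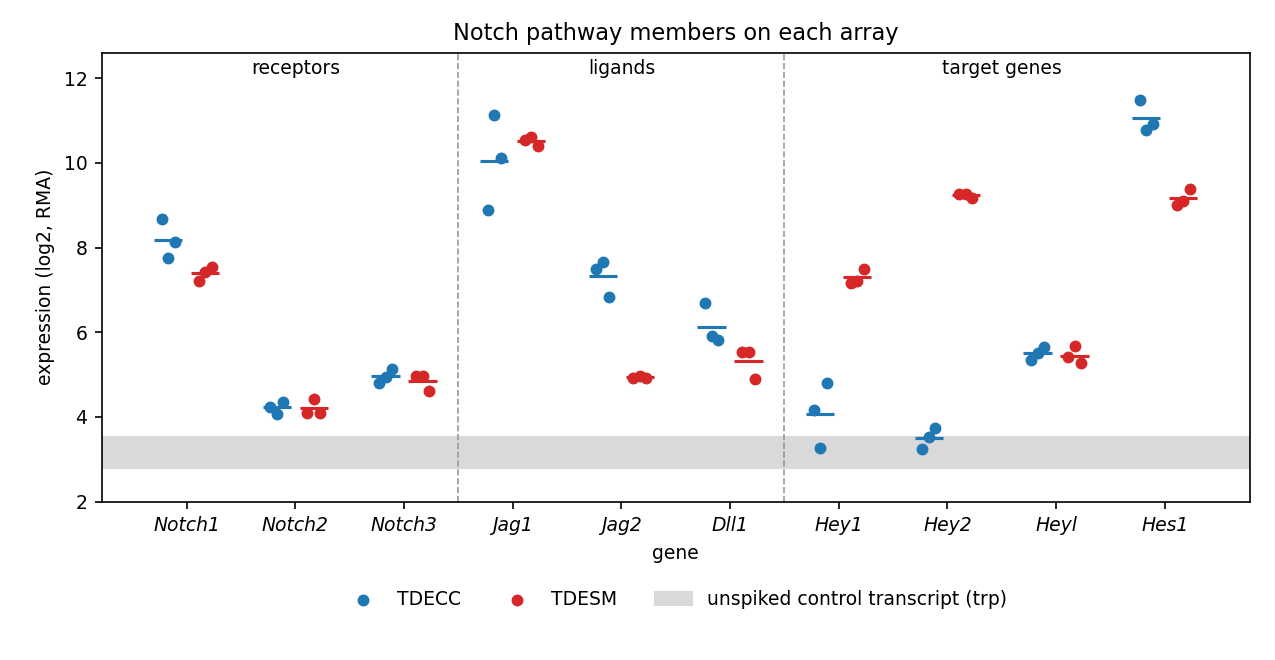
Expression of the 10 Notch genes on each array (log2, RMA), with 3 points per strain, TDECC in blue and TDESM in red, and a bar at each mean; the grey band is the range read for the unspiked control transcript. TDECC and TDESM points separate for 6 genes, and Hey2 goes from between 3.25 and 3.75 in TDECC, in or just above the grey band, to between 9.16 and 9.27 in TDESM.

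Among the target genes, Hey2 had the largest difference of the 10 members. Hey2 encodes a repressor known from heart and artery development. It read 3.25, 3.52 and 3.75 on the TDECC arrays and 9.26, 9.27 and 9.16 on the TDESM arrays. The TDECC arrays were close to the unspiked control transcript, and the TDESM arrays lay far above them with hardly any spread. The log2 difference was 5.72 (SE 0.15, limma adjusted p = 4.13e-07). Its fold against a level so close to background may be compressed.

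Hey1, a close relative of Hey2 that is also a target of BMP signalling, followed the same direction. It read 4.17, 3.26 and 4.81 in TDECC and 7.17, 7.22 and 7.49 in TDESM. All TDESM arrays lay above all TDECC arrays, and the TDECC values spread over 1.55 against 0.32 in TDESM. The log2 difference was 3.21 (SE 0.37, limma adjusted p = 0.000425), and it lay between 2.80 and 3.58 when any 1 array was left out.

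Heyl, the third Hey gene, stood apart from its relatives. It read 5.35, 5.50 and 5.66 in TDECC and 5.41, 5.67 and 5.27 in TDESM, so the strains overlapped throughout. Its second probe set read 5.14 to 5.39 in TDECC and 5.03 to 5.26 in TDESM. The log2 difference of the gene was -0.05, with a 95% interval of -0.42 to 0.31 (limma adjusted p = 0.817), an interval that leaves out the differences of Hey1 and Hey2.

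Hes1, a repressor that cycles in many progenitor cells and is itself kept in check by its own protein, moved against Hey1 and Hey2. It read 11.48, 10.77 and 10.91 in TDECC and 9.01, 9.09 and 9.39 in TDESM. Every TDECC array was above every TDESM array, and both strains were far from background. The log2 difference was -1.89 (SE 0.21, limma adjusted p = 0.000416). Hey2 and Hes1 thus differed in opposite directions. The windows printed above hold GTGGGAA in both genes, which describes the sequence and does not show binding.

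**Figure D2:**
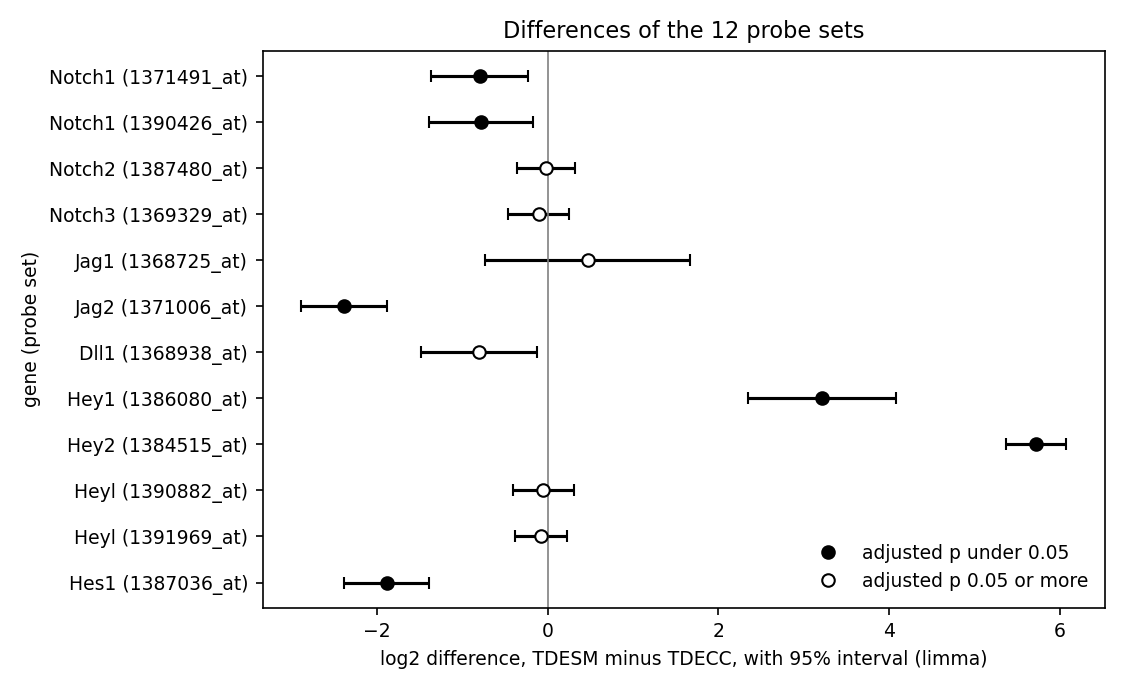
Log2 difference, TDESM minus TDECC, of each of the 12 probe sets with its 95% interval from limma fitted on all 31042 probe sets; filled points passed an adjusted p of 0.05. Hey1 and Hey2 lie to the right, Hes1 and Jag2 to the left, and the pairs of probe sets for Notch1 and Heyl lie almost on top of each other.

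Fitted probe set by probe set, 6 of the 12 were called, against 36.9% of all probe sets; 2 were higher, against 17.9%, and 4 lower, against 19.0%. The extra call was the second probe set of Notch1.

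Of the receptors, Notch1 was the only member called. Notch1, a receptor with broad roles in development and cancer, read 8.68, 7.75 and 8.13 in TDECC and 7.21, 7.43 and 7.53 in TDESM. The strains did not overlap, but the lowest TDECC array was only slightly above the highest TDESM array. The log2 difference was -0.80 (SE 0.24, limma adjusted p = 0.0341). Its second probe set read 8.46, 7.39 and 7.95 in TDECC and 7.15 on each TDESM array, a log2 difference of -0.78 (limma adjusted p = 0.0497 over all probe sets). The Notch1 call was lost without TDECC replicate 3 (limma adjusted p = 0.0655) and without TDESM replicate 1, 2 or 3 (0.118, 0.0932 and 0.0730), with the difference between -1.02 and -0.55 over all 6 omissions.

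Notch2, the receptor needed for bile duct formation, read low in both strains. It stood at 4.24, 4.08 and 4.35 in TDECC and at 4.10, 4.43 and 4.09 in TDESM. The values overlapped, and the log2 difference of -0.02 had a 95% interval of -0.37 to 0.33 (limma adjusted p = 0.942). A low reading of a single probe set does not show that the transcript is absent.

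Notch3, the receptor of mural cells, was likewise low in the fibroblastic strain. It read 4.80, 4.94 and 5.13 in TDECC and 4.97, 4.96 and 4.62 in TDESM. The values overlapped, with a log2 difference of -0.11 and a 95% interval of -0.47 to 0.26 (limma adjusted p = 0.632). Of 8 mural markers 6 were higher in TDESM, against 22.1% of all genes. Among them Pdgfrb read 9.36 to 9.73 and Abcc9 7.19 to 7.24 in TDESM. Cspg4 and Des differed less, at means of 4.36 and 5.72 in TDECC and 4.87 and 6.35 in TDESM. Myh11 was not called, at means of 7.20 in TDECC and 6.87 in TDESM. Rgs5, a pericyte marker, was not called either and read 3.40 to 3.53 in TDECC and 3.42 to 3.59 in TDESM.

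Among the ligands, Jag2 differed most. Jag2, a Jagged ligand best known from limb, palate and thymus, read 7.49, 7.65 and 6.84 in TDECC and 4.92, 4.97 and 4.93 in TDESM. The TDECC arrays lay well above the TDESM arrays, which were nearly identical to each other. The log2 difference was -2.39 (SE 0.22, limma adjusted p = 0.000136).

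Dll1, a Delta-like ligand, pointed the same way without being called. It read 6.69, 5.90 and 5.81 in TDECC and 5.54, 5.54 and 4.89 in TDESM. The strains did not overlap, and the log2 difference was -0.81 with a 95% interval of -1.49 to -0.13 (limma adjusted p = 0.0601). It lay between -0.97 and -0.53 when any 1 array was left out (limma adjusted p = 0.0521 to 0.187), with -0.53 without TDECC replicate 1, and it was called when centred on housekeeping genes (0.0481).

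Jag1, the ligand that portal vein mesenchyme presents to bile duct precursors, was well above background in both strains. It read 8.89, 11.13 and 10.12 in TDECC and 10.53, 10.62 and 10.39 in TDESM. The TDESM arrays fell inside the range of the TDECC arrays. The log2 difference of 0.47 had a 95% interval of -0.74 to 1.67 (limma adjusted p = 0.514), wide enough to hold more than a 2-fold change upward. Without TDECC replicate 1 the difference was -0.11 and without TDECC replicate 2 it was 1.01, neither called, and centred on the poly-A controls it was -0.75. An exact two-sided permutation test over the arrays gave p = 0.1, the smallest that 3 against 3 allow, for each of Notch1, Jag2, Dll1, Hey1, Hey2 and Hes1, and p of 0.7 or more for the other 4 members.

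The SD was larger in TDECC for 7 of 10 members, against 77.3% of all genes, so the wider spread among TDECC arrays was not particular to the members. Jag1 had the widest spread, with an SD of 1.12 in TDECC and 0.12 in TDESM (n = 3 each), where the median gene had 0.24 and 0.12. TDECC replicate 1 had the lowest Jag1 value of the strain and its highest Notch1, Dll1 and Hes1 values. The 3 members with the larger SD in TDESM were Notch2, Notch3 and Heyl, which were low in both strains.

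The other genes of the pathway came from lists written by role, of which 51 of 64 symbols were measured. Of these, 27 were called, or 52.9% against 42.7% of all genes. In TDESM 11 were higher (21.6%, against 22.1% of all genes) and 16 lower (31.4%, against 20.6%), and the median difference was -0.06. With the poly-A centring, 2 were higher and 40 lower, so 9 of the 11 rises lost their call or turned with the scaling. Rises among all 14217 genes also fell, from 3135 to 898, with 10873 lower, so this loss was not particular to the listed genes.

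**Figure D3:**
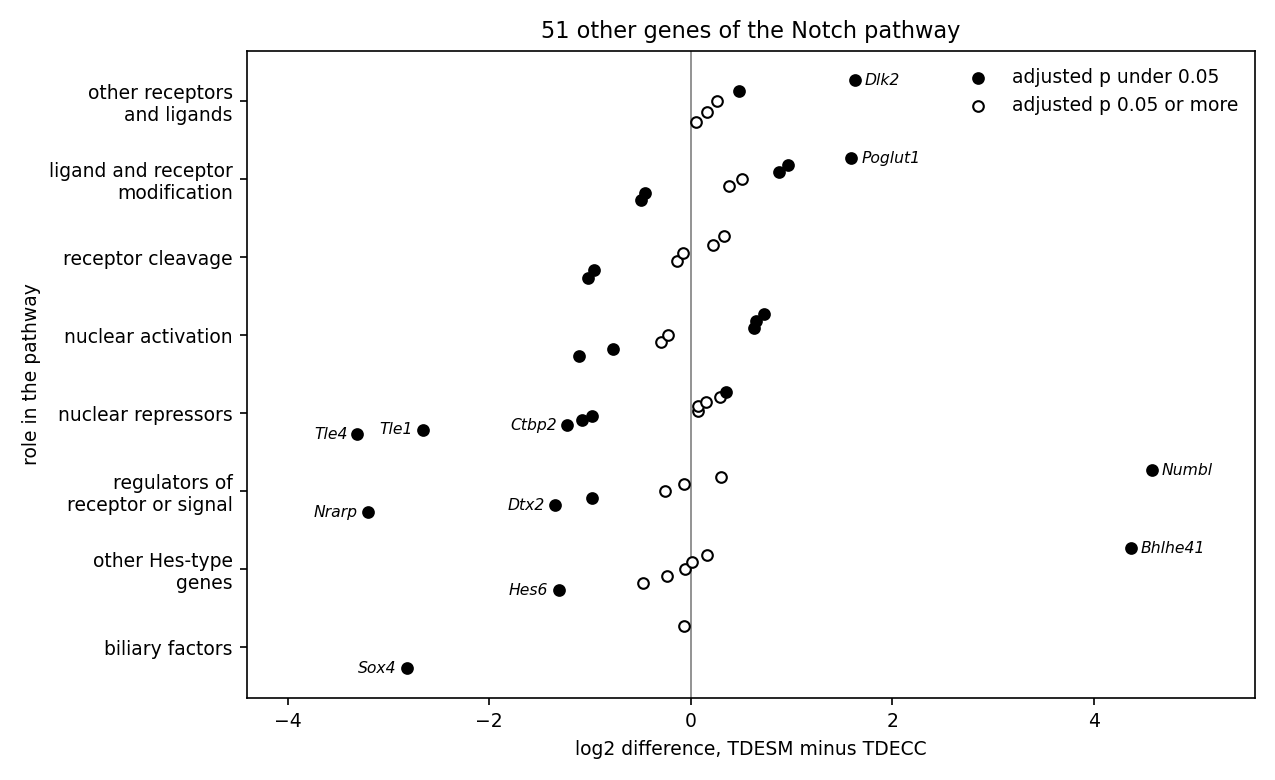
Log2 difference, TDESM minus TDECC, of 51 other Notch pathway genes by role; filled points passed an adjusted p of 0.05, and genes beyond 1.2 on the log2 scale are named. Numbl and Bhlhe41 stand far to the right, and Tle4, Nrarp, Sox4 and Tle1 far to the left.

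Of 5 other receptors and ligands, 2 were called (40.0%, against 42.7% of all genes), both higher in TDESM. Dlk2, a Delta-like protein that lacks the usual receptor-binding domain, was higher by 1.63 (limma adjusted p = 2.97e-05), or 0.41 and not called when centred on the poly-A controls. Dll4, a ligand of arterial endothelium, was higher by 0.48 (limma adjusted p = 0.0457). The Dll4 call was lost when any 1 array other than TDECC replicate 3 was left out (limma adjusted p up to 0.167), and its mean over probe sets was 0.30, not called. Notch4, an endothelial receptor, stood at 5.14 in TDECC and 5.30 in TDESM and was not called. Of 7 measured endothelial markers 1 was called, with array means of the list of 4.12 to 4.32 in TDECC and 4.20 to 4.34 in TDESM. The called gene was Pecam1, lower in TDESM, at 3.64 to 3.90 in TDECC and 3.43 on each TDESM array; leaving out TDECC replicate 2 or 3 ended that call (limma adjusted p = 0.0900 and 0.0848), as did leaving out any 1 TDESM array (up to 0.132). The 7 markers lay between 3.14 and 6.10 over all arrays, from Emcn (3.14 to 3.49 on TDECC arrays, 3.26 to 3.53 on TDESM arrays) to Esam (5.42 to 6.10 and 5.79 to 5.97). The array means of 7 measured leukocyte markers were 4.44 to 4.66 in TDECC and 4.37 to 4.69 in TDESM.

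Among 7 genes that modify ligands or receptors, 3 were higher (42.9%, against 22.1% of all genes) and 2 lower (28.6%, against 20.6%). Poglut1, which adds O-glucose to the EGF repeats of Notch, was higher by 1.60 (limma adjusted p = 0.000851), or 0.38 and not called with the poly-A centring. Mib2 and Neurl1, ubiquitin ligases that prompt ligand uptake, were higher by 0.96 and 0.88, differences that turned to -0.26 and -0.34 under the poly-A centring. Furin, which cuts the receptor in the Golgi, and Mfng, a Fringe glycosyltransferase, differed by -0.49 and -0.45. The Furin call was lost without TDESM replicate 1 (limma adjusted p = 0.0642) and that of Mfng without TDESM replicate 2 or 3 (0.0780 and 0.0742). Lfng, another Fringe enzyme, differed by 0.38 without being called (limma adjusted p = 0.0553); it was called without TDECC replicate 1 (0.0196) and turned to -0.84 under the poly-A centring.

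Of 6 genes for receptor cleavage, 2 were called (33.3%, against 42.7% of all genes), both lower in TDESM. Psen2, a catalytic subunit of gamma-secretase, differed by -1.02 (limma adjusted p = 0.00198). Adam10, the protease of the first ligand-induced cut, differed by -0.96 (limma adjusted p = 0.0252), a call lost without TDESM replicate 1, 2 or 3 (0.0594, 0.0753 and 0.0945).

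In the nuclear complex, 3 of 7 genes were higher (42.9%, against 22.1% of all genes) and 2 lower (28.6%, against 20.6%). Rbpj read 9.46, 9.54 and 9.51 in TDECC and 10.10, 10.24 and 10.13 in TDESM. The strains did not overlap, and the difference of 0.65 (limma adjusted p = 0.00279) turned to -0.57 when centred on the poly-A controls. Kat2b, an acetyltransferase, and Maml1, a Mastermind co-activator, were higher by 0.73 and 0.63; these turned to -0.49 and -0.59 under that centring, and the mean of the Kat2b probe sets was 0.47. Kat2a and Ep300, also acetyltransferases, differed by -1.11 and -0.77. The Maml1 call was lost when any 1 array other than TDECC replicate 3 was left out (limma adjusted p up to 0.107), and that of Ep300 without TDECC replicate 2 or 3 or TDESM replicate 2 or 3 (up to 0.0699).

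Of 10 nuclear repressors, 1 was higher, against 22.1% of all genes, and 5 lower, against 20.6%. Tle4 and Tle1, Groucho-type co-repressors that Hes proteins recruit, differed by -3.31 and -2.66 (limma adjusted p = 1.73e-05 and 8.31e-05). Tle4 read 8.88, 9.48 and 9.44 in TDECC and 6.19, 5.90 and 5.79 in TDESM, so the strains were far apart. With the mean of its probe sets Tle4 differed by -2.72. Ctbp2 differed by -1.22 and its relative Ctbp1 by 0.35. The Ctbp1 call was lost when any 1 array other than TDECC replicate 1 was left out (limma adjusted p up to 0.124), and its difference turned to -0.87 under the poly-A centring.

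Among 7 regulators of the receptor or its signal, 1 was higher (14.3%, against 22.1% of all genes) and 3 lower (42.9%, against 20.6%). Nrarp, a feedback inhibitor that is itself a direct Notch target, read 8.26, 8.85 and 8.0 in TDECC and 5.30, 5.14 and 5.06 in TDESM. It thus separated the strains in the direction of Hes1, by -3.20 (limma adjusted p = 3.62e-05). Numbl, a relative of the Notch antagonist Numb, read 5.11, 5.09 and 4.65 in TDECC and 9.46, 9.55 and 9.58 in TDESM, a difference of 4.58 (limma adjusted p = 1.07e-06). Dtx2 and Dtx4, Deltex ubiquitin ligases, differed by -1.35 and -0.98; with the mean of its probe sets Dtx4 differed by -0.61.

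Of 7 other genes of the Hes type, 1 was higher (14.3%, against 22.1% of all genes) and 1 lower (14.3%, against 20.6%). Bhlhe41, a clock-linked repressor, differed by 4.37 (limma adjusted p = 4.25e-06), from 3.16, 3.90 and 3.52 in TDECC to 7.80, 7.85 and 8.04 in TDESM. Hes6, which can oppose Hes1, differed by -1.31 (limma adjusted p = 0.00235). Hes5, a target best known from the nervous system, stood at 5.95 in TDECC and 5.97 in TDESM and was not called. Of 2 measured transcription factors tied to the biliary lineage, Sox4 differed by -2.82 (limma adjusted p = 0.00106), at 11.77, 10.75 and 12.42 in TDECC and 8.86, 8.70 and 8.92 in TDESM. With the mean of its probe sets Sox4 differed by -1.90. The other, Onecut1, picked with its values in view, was not called, at means of 3.40 in TDECC and 3.34 in TDESM.

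The genes with profiles most like Hey2 were ranked by the Euclidean distance between log2 profiles over 6 arrays, each minus its own mean. The nearest 5 were Zfp697 (distance 0.27), Actg2, a smooth muscle actin (0.32), Gorab (0.35), Acan, the cartilage proteoglycan aggrecan (0.37) and P3h3, a collagen prolyl hydroxylase (0.37). Their differences ran from 5.59 to 5.89. For Jag2 the nearest were Uaca (0.25), Epn3 (0.31), Adap1 (0.32), Foxo1 (0.33) and Tmem51 (0.33), with differences from -2.59 to -2.20. With 2 groups such distances mostly reflect the size of the strain difference, and they are given as a description.

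**Figure D4:**
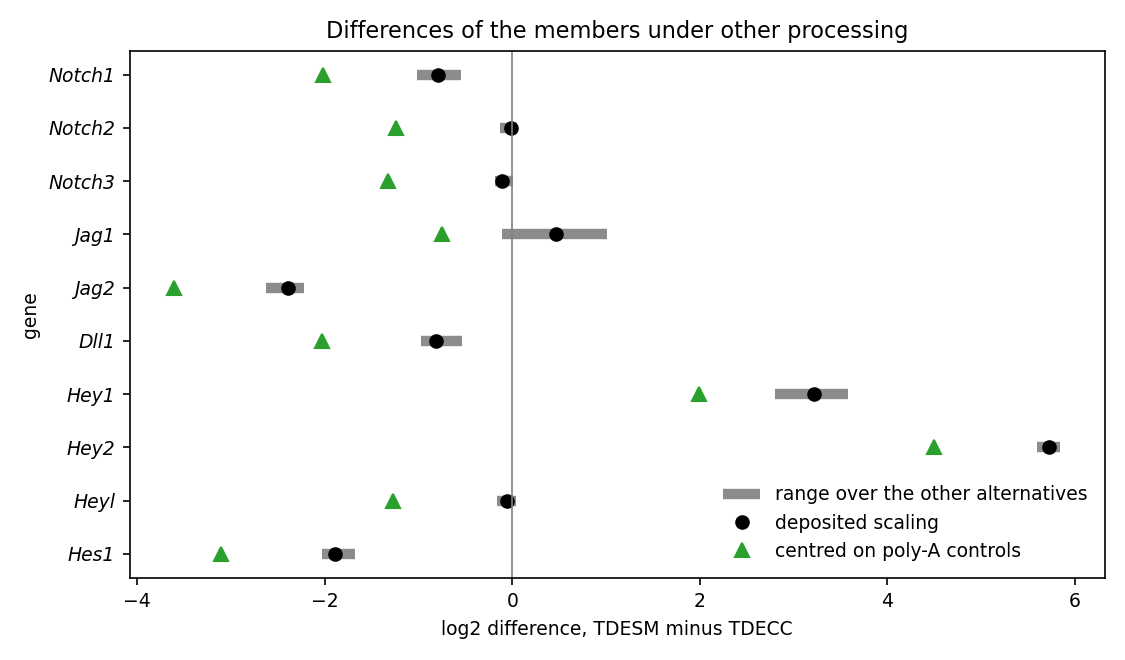
Log2 difference, TDESM minus TDECC, of each member with the deposited scaling (black), centred on the poly-A control transcripts (green triangles), and the range over the other alternatives tried (grey bars). Hey1, Hey2, Jag2, Hes1, Notch1 and Dll1 keep their side of 0 throughout, and Jag1, Notch2, Notch3 and Heyl span 0.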

How the data were processed

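The authors deposited RMA values on the log2 scale, per the submitters' processing notes (RMA version: not given in the sources used here). Such scaling brings arrays to a common distribution and removes any difference in total mRNA. Of 31099 probe sets, 57 were controls; the platform annotation gave 1 symbol to 20826, several to 436, and did not list 9780. Entrez identifiers of 99.7% matched RefSeq (GRCr8), and 0 symbols changed. A gene was its probe set with the highest mean; no filter on dim genes was used. Groups and replicate numbers came from the titles. Genes were tested with limma 3.58.1 in R 4.3.3 (lmFit, eBayes, two-sided). This step was also run on simulated data with few changed genes and the same spread in both strains. That check therefore did not cover the unequal spread of these arrays (median SD 0.24 in TDECC and 0.12 in TDESM). Named beyond the members were up to 3 called genes each way per list, 6 genes fixed by name (Rbpj, Notch4, Dll4, Lfng, Nrarp and Hes5) and the 5 nearest profiles; Onecut1 and single cell type markers were picked after their values were seen. Members and lists were chosen with earlier results of these data known. At most 5.74% of values were identical between any arrays. Alternatives were cyclic loess, centring on housekeeping genes, ribosomal genes or poly-A controls, a dim filter, mean probe sets, eBayes trend and robust settings, a replicate block, a minimum log2 difference of 1 and each array left out.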

Additional observations from a re-analysis of the deposited data

How the results depend on the processing

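Centred on the poly-A controls, 11771 genes passed (898 higher and 10873 lower), 10 members, 42 other pathway genes and all 12 member probe sets (2 higher and 10 lower). That centring turned the differences of Jag1 (-0.75), Dll4 (-0.74), Mib2 (-0.26), Neurl1 (-0.34), Kat2b (-0.49), Rbpj (-0.57), Maml1 (-0.59), Ctbp1 (-0.87), Notch4 (-1.06), Lfng (-0.84) and Hes5 (-1.20). It moved the median gene by -1.22 through the same offset for every gene of an array. Positive differences smaller than that shift therefore turn by construction. The cause of the offset was not tested. A minimum log2 difference of 1 left 3623 genes and 14 other pathway genes by construction. Under the other alternatives the members called numbered 4 to 6, and Hey1, Hey2, Jag2 and Hes1 were called wherever they were tested; the dim filter removed Notch2, Notch3, Dll1, Hey1 and Heyl. Replicate numbers did not pair the arrays: deviations of same-numbered arrays correlated at -0.07, 0.02 and -0.14, and 1 of 6 arrays correlated best with its own number. With the replicate block 5342 genes, 5 members and 22 other pathway genes passed; Notch1 (limma adjusted p = 0.0590), Dll4, Furin, Mfng, Ep300, Ctbp1 and Pecam1 (0.0537 to 0.127) were lost and Dll1 gained (0.0273). Centred on housekeeping genes Dll1 was also called (limma adjusted p = 0.0481), while Dll4 (0.0729), Ctbp1 (0.0515) and Pecam1 (0.0970) were not. Pecam1 was not called when centred on ribosomal genes either (limma adjusted p = 0.0864). Lfng was called with cyclic loess, both gene centrings and mean probe sets (0.0248 to 0.0470). Leaving out each array in turn called 4605 to 6437 genes, 4 or 5 members and 21 to 28 other pathway genes. Without detection calls, differences against low readings could not be bounded.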
